A study of Homo sapiens with 24 samples.

Results

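The genes described here were 9 translation control genes chosen by name from the 58735 genes of a human RNA sequencing table: the 4 kinases of the translation factor eIF2 (EIF2AK1, EIF2AK2, EIF2AK3 and EIF2AK4), the GCN2 inhibitor IMPACT, the eIF2α gene EIF2S1, the phosphatase subunit gene PPP1R15B, and the cap-binding inhibitors EIF4EBP1 and EIF4EBP2. They were followed in Sem and Nalm6, established cell lines from acute lymphoblastic leukaemia of B cell precursors; KMT2A is rearranged in Sem. Cultures were given 10 µM ibrutinib together with asparaginase (the combination), asparaginase alone or 10 µM ibrutinib alone for 24 h, or were left untreated. Each of these 8 groups had 3 libraries. The labels gave the asparaginase dose as 1 IU/ml in one place and 0.5 IU/ml in another, and no harvest time for untreated cells. The labels describe triplicates but not separate cultures, so each p-value sets a difference against the scatter of these libraries, and that scatter may be technical. With 1 line of each kind, the KMT2A rearrangement cannot be told apart from any other difference between Sem and Nalm6.

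Translation of most messenger RNAs starts when eIF2 brings the initiator tRNA to the ribosome. Phosphorylation of its α subunit by an eIF2 kinase lowers bulk initiation, while messenger RNAs with upstream open reading frames, such as that of ATF4, are translated better. The 4 kinases answer to different stresses: EIF2AK4 (GCN2) to uncharged tRNA and stalled ribosomes, EIF2AK3 (PERK) to misfolded protein in the endoplasmic reticulum, EIF2AK2 (PKR) to double-stranded RNA, and EIF2AK1 (HRI) to lack of haem and to mitochondrial stress. A separate brake is set by the 4E-binding proteins, which hold the cap-binding factor eIF4E until mTORC1 phosphorylates them. Asparaginase removes asparagine, and with lower efficiency glutamine, from the medium, and ibrutinib is a covalent inhibitor of the kinase BTK. Transcript levels do not report kinase activity or phosphorylation, which were not measured here.

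Expression was measured as FPKM, reads scaled by gene length and library size, so levels can be compared between genes. Deposited values also carried a library factor and were 0.915 to 1.09 times FPKM computed from the reads assigned to genes. In Nalm6 the factor was 1.005 to 1.018 untreated and 0.957 to 0.973 with ibrutinib. It was 0.916 to 0.933 there with asparaginase and 0.915 to 0.919 with the combination. In Sem it was 1.06 to 1.09 untreated, 1.03 to 1.05 with ibrutinib, 1.03 to 1.06 with asparaginase and 1.02 to 1.04 with the combination. Rescaling to TPM, used below, takes this factor out. Libraries held 15.03 to 18.1 M reads (M, 1e6) assigned to genes (median 16.2 M), and within groups the correlation across genes, which are not independent replicates, was 0.978 to 0.988. Of 10 B cell precursor markers, 8 reached 1 FPKM in every Sem library and all 10 in every Nalm6 library; the exceptions in Sem were DNTT and RAG1. MEIS1, HOXA9 and HOXA10, which mark KMT2A-rearranged leukaemia, lay between 8.87 and 30.1 FPKM in Sem and had 0 reads in Nalm6. They belong to a list of 7, of which FLT3, LMO2 and PROM1 also reached 1 FPKM in every Sem library. LMO2 did so in every Nalm6 library too, as did MME, listed as low in this leukaemia. The summed FPKM of the 7 was 565 to 756 in Sem and 99.7 to 150 in Nalm6. Of markers of other cell types, CD3D, CD3E, S100A8, S100A9, FCGR3A and DCN had 0 reads in all 24 libraries. Others were present. CSF1R, XBP1 and PECAM1 reached 1 FPKM in every Sem library, and LYZ, SDC1 and XBP1 in every Nalm6 library. The summed FPKM of 5 plasma cell markers was 68.8 to 103 in Sem and 90.5 to 146 in Nalm6. That of 7 myeloid markers was 1.74 to 6.05 in Sem and 4.23 to 14.4 in Nalm6. The summed FPKM of 8 T and NK cell markers, nearly all from NKG7 and TRAC, was 96.8 to 99.7 in Sem with the combination, 102 to 105 with asparaginase, 84.2 to 91.6 with ibrutinib and 109 to 124 in untreated Sem. In Nalm6 it was 4.27 to 6.42 with the combination, 7.54 to 11.7 with asparaginase, 1.47 to 2.44 with ibrutinib and 5.00 to 5.81 untreated. The sum of the 10 B cell precursor markers also differed between groups. In Sem it was 791 to 816 with the combination, 550 to 572 with asparaginase, 755 to 786 with ibrutinib and 588 to 621 untreated. In Nalm6 it was 2447 to 2460, 1931 to 1992.5, 2754 to 2932 and 2564 to 2702 in the same order. Mitochondrial transcripts took 4.30% to 4.81% of reads in Nalm6 with asparaginase or the combination, 3.58% to 3.91% in Nalm6 with ibrutinib or untreated, and 2.35% to 2.81% in Sem. The part of these markers or of mitochondrial reads in the results below was not tested. Earlier work on these data set 5 libraries apart (untreated 2 and ibrutinib 2 in Sem, and combination 1, asparaginase 1 and untreated 2 in Nalm6). Without them 2 calls of the genes described were lost and 7 gained, and the larger changes of counts are given with the processing. Rescaling FPKM to TPM moved the median log2 change of all genes with the combination to 0.11 in Sem and 0.19 in Nalm6, against 0.02 as deposited in each, so small changes are relative to the scaling. In bulk RNA, fewer transcripts per cell and fewer cells that carry them cannot be told apart.

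Of the 9 genes, 8 were expressed above 1 FPKM in all 24 libraries and IMPACT was not. IMPACT, whose protein competes with GCN2 for its activator GCN1, had 3 reads in Nalm6 asparaginase library 3, 1 read in Sem asparaginase library 1 and 0 reads in the other 22 libraries. For this gene 3 reads stand for 0.032 to 0.042 FPKM, depending on the library. EEF1G, an elongation factor gene that every cell uses, was also listed at 0 in all 24 libraries, so a value of 0 in this table need not mean an absent transcript. IMPACT lies at chr18:24426616-24453535 (GRCh38, forward strand) and entered no test.

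The other members covered a wide range of levels. EIF4EBP1 was the highest in every group, with group means of 69.5 to 192 FPKM, against 36.4 to 43.5 for EIF4EBP2. The ranges of PPP1R15B (25.6 to 38.5), EIF2S1 (17.9 to 35.3) and EIF2AK1 (17.4 to 40.5) overlapped. EIF2AK2 (8.76 to 13.8), EIF2AK3 (6.80 to 9.82) and EIF2AK4 (4.89 to 8.06) were the lowest. The fewest reads behind a value were 526, for EIF2AK3 in a Sem asparaginase library, so counting error was small for all 8 genes. Relative to the row neighbours of each gene in the table, which is ordered by expression, the restored mean of these 8 genes was 0.82 to 1.04 times the median of 30 neighbours.

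**Figure D1:**
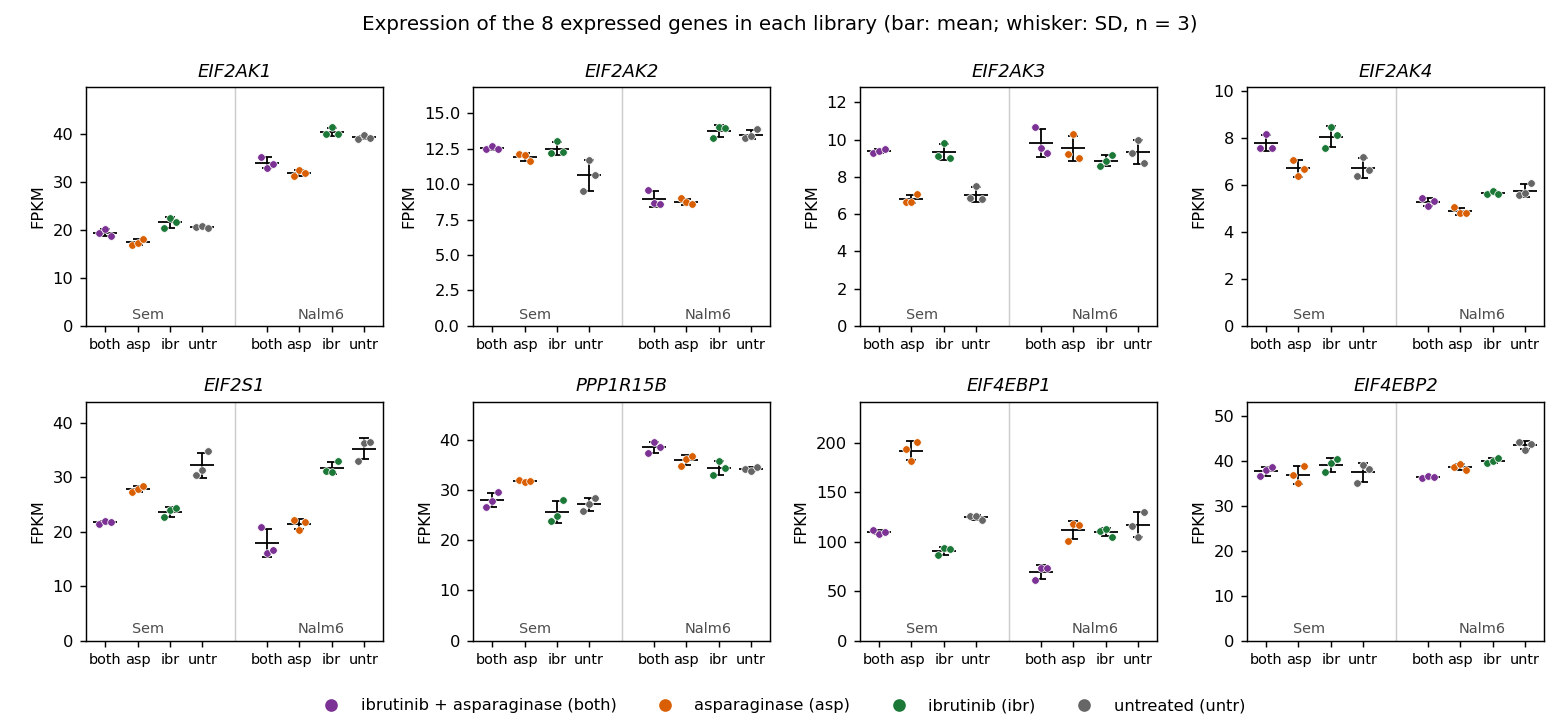
FPKM (vertical axes, each starting at 0) of the 8 expressed genes in every library; points are libraries, bars are group means and whiskers the SD of 3 libraries, with Sem left and Nalm6 right in each panel. EIF4EBP1 stands at 182 to 201 FPKM in Sem with asparaginase, above all other groups, and EIF2AK2 separates the lines, at 11.6 to 12.7 FPKM in Sem with asparaginase or the combination against 8.57 to 9.60 FPKM in Nalm6 with the same treatments.

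Changes were tested by limma on log2(FPKM + 1) over all genes with at least 1 FPKM in at least 3 libraries, and a gene was called at a Benjamini-Hochberg adjusted p under 0.05. With the combination against untreated cells, 5 of the 8 expressed members were called in Sem (3 higher, 2 lower), where 52.9% of all tested genes were called (26.6% higher, 26.3% lower). In Nalm6 6 of 8 were called (1 higher, 5 lower), against 63.7% of all genes (32.4% higher, 31.3% lower). With asparaginase alone, 4 of 8 were called in Sem (2 higher, 2 lower), against 26.5% of all genes (11.4% higher, 15.1% lower), and 5 of 8 in Nalm6, all lower, against 56.3% (28.2% higher, 28.1% lower). With ibrutinib alone, 5 of 8 were called in Sem (3 higher, 2 lower), against 41.5% of all genes (20.3% higher, 21.3% lower). In Nalm6, limma called 0 of 8 with ibrutinib, against 12.4% of all genes (4.99% higher, 7.46% lower). Of these 8 genes, 1 had an unadjusted p under 0.05. Limma voom on the recovered reads, which keeps the deposited library scaling, also called 0. Some other settings called 1 or 2, as given with the processing. The shares called in either direction with the combination, and with asparaginase in Nalm6, lie near those of all genes. Those in Sem with asparaginase or ibrutinib were higher. In Nalm6 with asparaginase or the combination, calls leaned to lower more than over all genes. With only 8 genes, the counts alone do not set the members apart. The median change of the 8 genes was 0.03 in Sem and -0.23 in Nalm6 with the combination on the log2 scale, against 0.02 over all tested genes in each line.

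**Figure D2:**
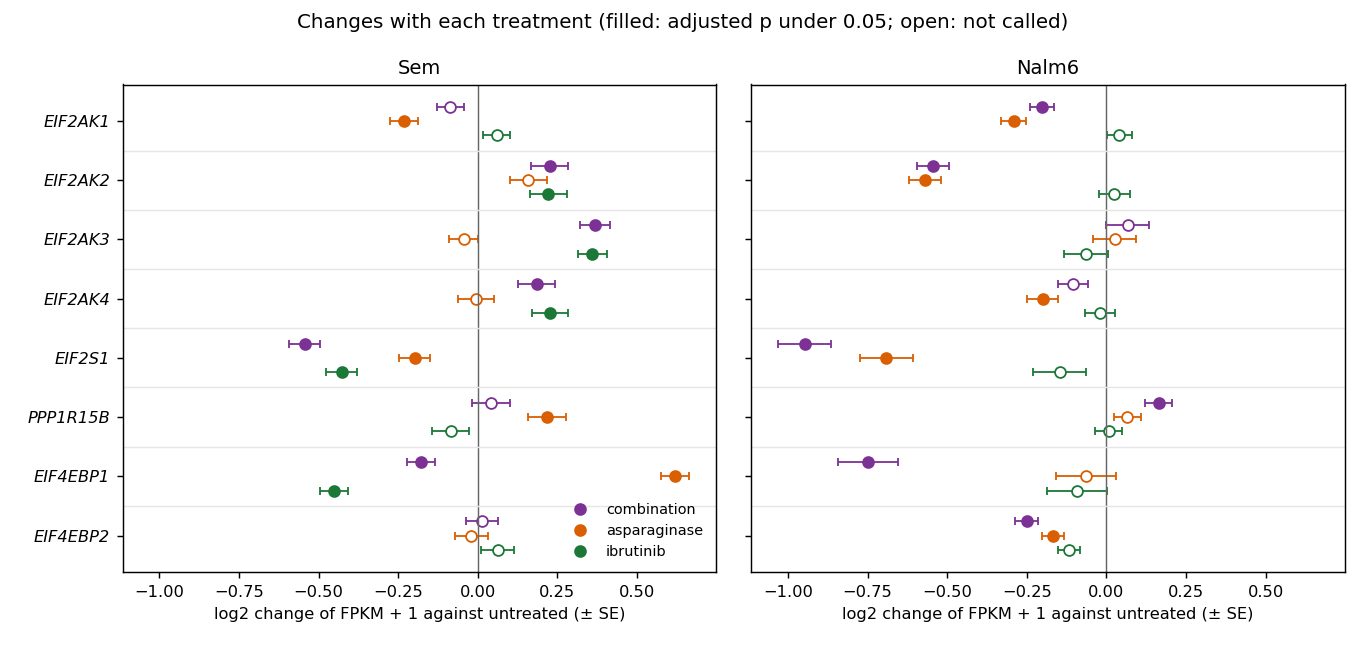
Change against untreated cells of the 8 expressed genes on the log2(FPKM + 1) scale (horizontal axis, whiskers are SE), with Sem left and Nalm6 right; filled points passed the adjusted p threshold and open points did not. EIF2S1 is lower with the combination in both lines (-0.54 in Sem and -0.95 in Nalm6), and EIF4EBP1 takes the widest spread of values, 0.62 with asparaginase and -0.45 with ibrutinib in Sem.

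EIF2AK2, the double-stranded RNA sensor PKR and a known interferon-induced gene, moved in different directions in the 2 lines (chr2:37099210-37157065, reverse strand). In Sem it had 12.5, 12.7 and 12.5 FPKM with the combination, 12.1, 12.03 and 11.6 with asparaginase and 12.2, 13.04 and 12.3 with ibrutinib, against 9.51, 11.7 and 10.6 in untreated cells. Libraries with the combination and with ibrutinib were all above the untreated ones, while the asparaginase group overlapped with them. EIF2AK2 rose in Sem with the combination (log2 change 0.23, SE 0.06, adjusted p = 0.00721) and with ibrutinib (0.22, SE 0.06, adjusted p = 0.0107), and was not called with asparaginase (0.16, adjusted p = 0.0688). In Nalm6 EIF2AK2 had 9.60, 8.64 and 8.58 FPKM with the combination, 8.9996, 8.71 and 8.57 with asparaginase and 13.3, 14.02 and 13.97 with ibrutinib, against 13.2, 13.4 and 13.9 in untreated cells. All 6 Nalm6 libraries with asparaginase in the medium lay below all 6 without it. EIF2AK2 fell in Nalm6 with the combination (-0.54, SE 0.05, adjusted p = 2.81e-06) and with asparaginase (-0.57, SE 0.05, adjusted p = 3.41e-06). A correction for GC content and transcript length ended both calls in Sem (combination 0.10, adjusted p = 0.0611, and ibrutinib 0.09, adjusted p = 0.115). GPATCH11 and a pseudogene on the opposite strand share 436 of the 10753 exonic bases of EIF2AK2.

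The promoter of EIF2AK2 is shown because this kinase had the largest difference between the lines in the effects of the combination and of asparaginase among the members; the window is 194 bases long and ends just past the RefSeq start (chr2:37156977-37157170, GRCh38.p14, reverse strand, written 5′ to 3′). Capitals mark letters matched by 6 motifs searched on both strands: CACGTG, found 181 bases before the start and in 7.26% of 35116 RefSeq promoters (250 bases before to 50 after the start); CCAAT, 87 and 77 bases before it and in 34.6%; and GAAA repeated after 2 further bases, the core of the interferon-stimulated response element, 6 bases before it and in 3.57%.
EIF2AK2: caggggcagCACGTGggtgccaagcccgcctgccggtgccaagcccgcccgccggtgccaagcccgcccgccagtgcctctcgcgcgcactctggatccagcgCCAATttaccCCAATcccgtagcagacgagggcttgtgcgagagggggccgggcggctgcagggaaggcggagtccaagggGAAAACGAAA
Matches are letters in a window and not evidence of a bound factor. The GENCODE gene runs to 37157065, inside this window and upstream of the RefSeq start. The CCAAT at 77 bases and the GAAA repeat therefore lie within the annotated gene.

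EIF2AK3 and EIF2AK4, the kinases of endoplasmic reticulum stress and of amino acid shortage, rose in Sem whenever ibrutinib was present. EIF2AK3 (chr2:88556741-88627576, reverse strand) had 9.26, 9.41 and 9.49 FPKM in Sem with the combination, 6.67, 6.68 and 7.07 with asparaginase and 9.13, 9.83 and 9.04 with ibrutinib, against 6.84, 7.50 and 6.82 in untreated cells. The 6 Sem libraries with ibrutinib all lay above the 6 without it. EIF2AK3 rose with the combination (0.37, SE 0.05, adjusted p = 5.55e-05) and with ibrutinib (0.36, SE 0.05, adjusted p = 0.000126), and also with the combination against asparaginase alone (0.41, SE 0.05, adjusted p = 4.59e-05). In Nalm6 its group means stayed between 8.88 and 9.82 FPKM and no comparison was called, with changes against untreated cells of 0.07 (combination), 0.03 (asparaginase) and -0.06 (ibrutinib) and an SE of 0.07. Antisense genes share 819 of the 5434 exonic bases of EIF2AK3, and the sources used here do not say whether counting used strand.

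The EIF2AK3 promoter, shown for comparison with that of EIF2AK2, held 4 CCAAT boxes in the 250 bases before its RefSeq start (chr2:88627465-88627714, GRCh38.p14, reverse strand, 5′ to 3′), written as CCAAT or, on the other strand, ATTGG in capitals.
EIF2AK3: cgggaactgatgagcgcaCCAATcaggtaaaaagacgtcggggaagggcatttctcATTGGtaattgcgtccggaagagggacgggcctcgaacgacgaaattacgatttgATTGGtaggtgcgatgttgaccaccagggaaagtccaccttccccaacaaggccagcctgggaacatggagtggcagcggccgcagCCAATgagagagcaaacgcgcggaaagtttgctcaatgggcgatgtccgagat
The boxes begin 232, 194, 139 and 53 bases before the start. The GENCODE gene runs to 88627576, inside this window, so the box at 53 bases lies within the annotated gene. CCAAT followed by CCACG after 9 further bases, the endoplasmic reticulum stress element (it contains the CCAAT motif), was in none of the 7 member promoters in the RefSeq table and in 0.0769% of all promoters.

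EIF2AK4 (chr15:39934146-40035591, forward strand), the sensor most directly tied to amino acid supply, had 7.59, 8.19 and 7.60 FPKM in Sem with the combination, 7.08, 6.38 and 6.66 with asparaginase and 7.60, 8.47 and 8.12 with ibrutinib, against 6.37, 7.22 and 6.64 in untreated cells. It rose in Sem with ibrutinib (0.23, SE 0.06, adjusted p = 0.00796) and with the combination (0.18, SE 0.06, adjusted p = 0.018), and asparaginase alone gave -0.01 (SE 0.06). EIF2AK4 in Nalm6 had 5.44, 5.11 and 5.33 FPKM with the combination, 5.06, 4.81 and 4.80 with asparaginase and 5.64, 5.73 and 5.63 with ibrutinib, against 5.57, 5.65 and 6.08 in untreated cells. It fell in Nalm6 with asparaginase (-0.20, SE 0.05, adjusted p = 0.00403), a call lost when the values were rescaled to TPM (-0.08, adjusted p = 0.249). The call in Sem with the combination was lost without combination library 2, untreated library 1 or untreated library 3 (0.15 to 0.18, adjusted p 0.0515 to 0.0718), and GC and length correction ended both Sem calls (combination 0.06, adjusted p = 0.335; ibrutinib 0.11, adjusted p = 0.094).

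EIF2AK1 (chr7:6022244-6059230, reverse strand), the haem-regulated kinase and the most abundant of the 4 transcripts, fell with asparaginase in both lines. It had 16.9, 17.2 and 18.1 FPKM in Sem with asparaginase, against 20.7, 20.7 and 20.5 in untreated Sem (log2 change -0.23, SE 0.04, adjusted p = 0.00259). In Nalm6 it had 31.3, 32.5 and 32.0 FPKM with asparaginase, against 39.1, 39.7 and 39.1 in untreated cells (-0.29, SE 0.04, adjusted p = 7.77e-05). The groups did not overlap in either line. With the combination it had 19.3, 20.2 and 18.7 FPKM in Sem (-0.09, adjusted p = 0.118) and 35.3, 33.0 and 33.8 in Nalm6, where it fell (-0.20, SE 0.04, adjusted p = 0.000755). Ibrutinib gave 0.06 in Sem and 0.04 in Nalm6, neither called. In Nalm6 the combination value was -0.04 (adjusted p = 0.479) after rescaling to TPM. After quantile normalization it turned to 0.10 and was called in that direction (adjusted p = 0.0374). The asparaginase value in Nalm6 was -0.03 (adjusted p = 0.54) after quantile normalization. The 4 genes that overlap EIF2AK1 share 532 of its 5550 exonic bases, and 3 of them, AIMP2 included, lie on the opposite strand.

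The mixture of the 4 kinase transcripts differed between the lines and shifted with treatment. EIF2AK1 made up 39.5% ± 0.64 of their summed FPKM in Sem with the combination, 40.6% ± 1.09 with asparaginase, 41.9% ± 0.55 with ibrutinib and 45.9% ± 1.83 in untreated Sem, against 58.6% ± 0.76, 58.0% ± 0.75, 58.8% ± 0.62 and 57.9% ± 0.25 in the same order in Nalm6 (SD, n = 3 each). EIF2AK2 made up 25.5% ± 0.39 with the combination, 27.8% ± 0.96 with asparaginase, 24.3% ± 0.40 with ibrutinib and 23.5% ± 1.47 in untreated Sem. In Nalm6 its share was 15.4% ± 0.35 with the combination, 15.9% ± 0.52 with asparaginase, 19.7% to 20.3% with ibrutinib and 19.9% ± 0.53 in untreated cells. The EIF2AK4 share was 14.7% to 16.5% in Sem libraries and 8.18% to 9.34% in Nalm6 libraries. Summed over the 4 kinases, the level was 49.1 ± 1.15 FPKM in Sem with the combination and 45.0 ± 1.91 in untreated Sem, and 58.1 ± 2.53 FPKM in Nalm6 with the combination and 67.9 ± 0.82 in untreated Nalm6. These shares are descriptions and were not tested.

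**Figure D3:**
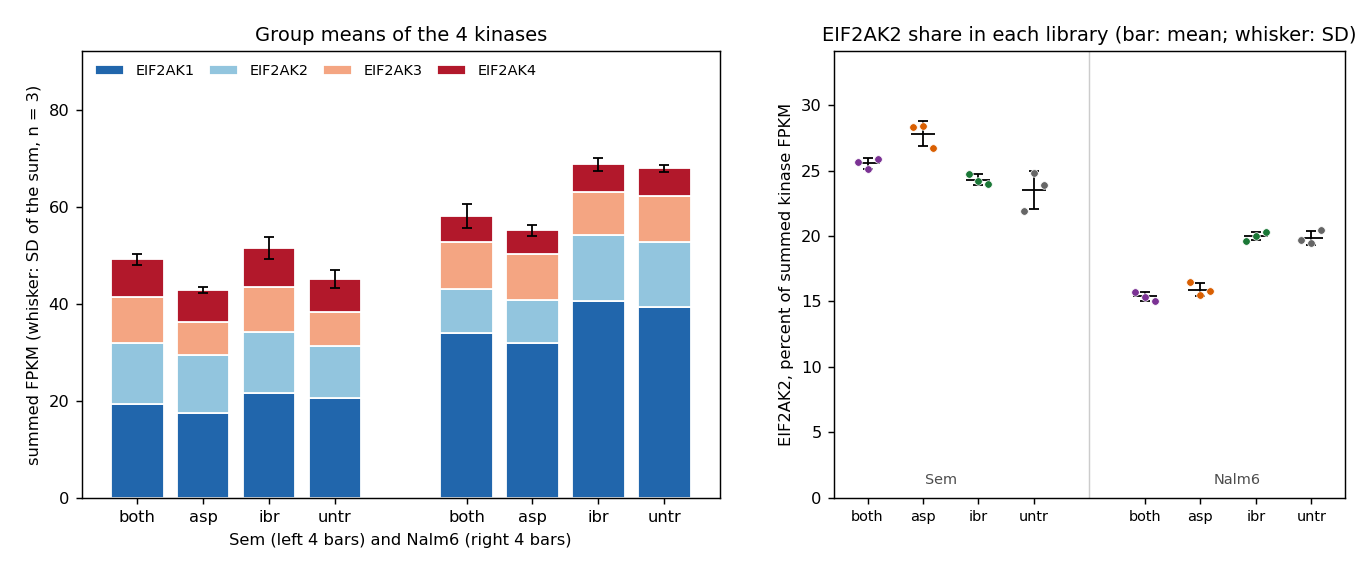
Left, group means of the 4 kinases stacked to their summed FPKM (vertical axis, whiskers are the SD of the sum over 3 libraries); right, the EIF2AK2 share of that sum in each library. The sum is 42.9 to 51.5 FPKM in Sem groups and 55.1 to 68.7 in Nalm6 groups, and the EIF2AK2 share is 26.7% to 28.4% in Sem with asparaginase against 15.5% to 16.5% in Nalm6 with asparaginase.

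EIF2S1 (chr14:67359997-67386516, forward strand), which encodes the α subunit that all 4 kinases phosphorylate, fell in both lines and most with the combination. In Sem it had 21.4, 22.0 and 21.9 FPKM with the combination, 27.3, 27.9 and 28.5 with asparaginase and 22.6, 24.0 and 24.4 with ibrutinib, against 30.4, 31.3 and 34.9 in untreated cells. All 9 treated Sem libraries lay below the 3 untreated ones. The log2 change in Sem was -0.54 (SE 0.05, adjusted p = 4.21e-06) with the combination, -0.20 (SE 0.05, adjusted p = 0.0119) with asparaginase and -0.43 (SE 0.05, adjusted p = 5.44e-05) with ibrutinib. In Nalm6 it had 20.8, 16.2 and 16.7 FPKM with the combination, 22.2, 20.4 and 21.8 with asparaginase and 31.2, 31.1 and 33.1 with ibrutinib, against 33.0, 36.3 and 36.5 in untreated cells. It fell with the combination (-0.95, SE 0.08, adjusted p = 2.13e-06) and with asparaginase (-0.69, SE 0.08, adjusted p = 3.96e-05) and was not called with ibrutinib (-0.15, adjusted p = 0.281). The Sem change with asparaginase was not called after rescaling to TPM (-0.11, adjusted p = 0.0719) or quantile normalization (-0.12, adjusted p = 0.0642). ATP6V1D on the opposite strand shares 269 of its 5651 exonic bases.

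PPP1R15B (chr1:204403387-204411791, reverse strand), the constitutive partner (CReP) that directs protein phosphatase 1 to eIF2α and so reverses the kinases, rose in 1 comparison with untreated cells in each line. In Sem it had 26.7, 27.9 and 29.5 FPKM with the combination, 31.9, 31.6 and 31.8 with asparaginase and 23.9, 24.9 and 28.1 with ibrutinib, against 25.8, 27.3 and 28.5 in untreated cells. It rose with asparaginase alone (0.22, SE 0.06, adjusted p = 0.0189) and was not called with the combination (0.04, adjusted p = 0.578) or ibrutinib (-0.08, adjusted p = 0.277). The asparaginase call was lost without asparaginase library 1 (0.21, adjusted p = 0.0542) or untreated library 1 (0.18, adjusted p = 0.0704). In Nalm6 it had 37.4, 39.6 and 38.6 FPKM with the combination, 34.8, 36.2 and 36.7 with asparaginase and 33.1, 35.9 and 34.4 with ibrutinib, against 34.2, 33.9 and 34.7 in untreated cells, and rose with the combination (0.16, SE 0.04, adjusted p = 0.00563). Its stress-inducible paralogue PPP1R15A (GADD34) rose far more. PPP1R15A averaged 14.1 ± 0.45 FPKM in Sem with the combination and 8.36 ± 0.98 in untreated Sem, and 53.8 ± 1.28 FPKM in Nalm6 with the combination and 7.14 ± 0.79 in untreated Nalm6 (SD, n = 3 each).

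The PPP1R15B promoter is shown because TGATGNAA, the composite letters known for C/EBP and ATF dimers, occurred in it and in none of the 6 other member promoters in the RefSeq table. The window is 120 bases long (chr1:204411933-204412052, GRCh38.p14, reverse strand, 5′ to 3′), with TGATGNAA 227 bases and CCAAT 159 bases before the start in capitals.
PPP1R15B: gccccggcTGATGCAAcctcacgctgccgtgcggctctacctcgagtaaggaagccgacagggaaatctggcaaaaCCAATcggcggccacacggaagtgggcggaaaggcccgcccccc
TGATGNAA on either strand was in 3.62% of the 35116 promoters. The cyclic AMP element TGACGTCA was in 1.85% of them and in none of the 7.

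EIF4EBP1 (chr8:38030341-38060365, forward strand), the most abundant of the 4E-binding proteins here, responded to the 2 drugs in opposite directions in Sem. It had 112, 108 and 110.2 FPKM in Sem with the combination, 194, 182 and 201 with asparaginase and 86.5, 93.4 and 93.2 with ibrutinib, against 126, 127 and 122 in untreated cells. No 2 of these 4 groups overlapped. EIF4EBP1 rose with asparaginase (0.62, SE 0.04, adjusted p = 3.12e-06) and fell with ibrutinib (-0.45, SE 0.04, adjusted p = 1.76e-05). With the combination it was slightly below untreated Sem (-0.18, SE 0.04, adjusted p = 0.0051), a call lost after rescaling to TPM (-0.09, adjusted p = 0.111) or with both lines in 1 fit (-0.18, adjusted p = 0.0626), and quantile normalization gave 0.07. In Nalm6 it had 61.3, 73.3 and 73.8 FPKM with the combination, 101, 118 and 117 with asparaginase and 111, 113 and 105 with ibrutinib, against 117, 105 and 130.4 in untreated cells. The 3 libraries with the combination lay below the other 9. EIF4EBP1 fell in Nalm6 with the combination (-0.75, SE 0.09, adjusted p = 3.61e-05) but was not called with asparaginase (-0.06, adjusted p = 0.594) or ibrutinib (-0.09, adjusted p = 0.566). Quantile normalization turned the Nalm6 asparaginase value to 0.31, which was called (adjusted p = 0.0223).

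EIF4EBP1 was the only member called in the interaction of the drugs, the amount by which the combined change departs from adding up both drugs' own changes. The interaction was -0.35 (SE 0.06, adjusted p = 0.0234) in Sem, where 1 of 8 members was called, lower, against 1.54% of all genes (0.76% higher, 0.775% lower), and -0.59 (SE 0.13, adjusted p = 0.0282) in Nalm6, where 1 of 8 was called, lower, against 5.58% (2.99% higher, 2.59% lower). In Sem the call was lost without asparaginase library 1, combination library 2 or 3, ibrutinib library 2 or 3, or untreated library 3 (-0.35 to -0.33, adjusted p 0.0558 to 0.0669). In Nalm6 it was lost without asparaginase library 2 or 3, ibrutinib library 1 or 2, or untreated library 1 (-0.59 to -0.55, adjusted p 0.0591 to 0.0715).

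Set against asparaginase alone, the combination gave lower EIF4EBP1 in both lines. Against asparaginase, 6 of 8 members were called in Sem (3 higher, 3 lower), where 38.3% of all genes were (18.6% higher, 19.8% lower), and 2 of 8 in Nalm6, both lower, where 21.8% were (9.8% higher, 12% lower). EIF4EBP1 changed by -0.80 (SE 0.04, adjusted p = 2.61e-07) in Sem and by -0.68 (SE 0.09, adjusted p = 0.000567) in Nalm6, and EIF2S1 by -0.35 (SE 0.05, adjusted p = 0.000233) in Sem. In Nalm6 EIF2S1 changed by -0.26 (SE 0.08, adjusted p = 0.049994), and leaving out any 1 of the 6 libraries other than combination library 1 ended that call (adjusted p 0.0681 to 0.166). EIF2AK1 (0.15) and EIF2AK4 (0.19) were higher and PPP1R15B (-0.18) lower in Sem, each with calls that 1 library could end. These were asparaginase libraries 1 and 2 and combination library 2 for EIF2AK1 (adjusted p 0.0557 to 0.0817), asparaginase libraries 2 and 3 and combination library 2 for EIF2AK4 (0.0566 to 0.0837), and all but combination library 3 for PPP1R15B (0.0705 to 0.125). Against ibrutinib, 1 of 8 was called in Sem, EIF4EBP1 (0.27, SE 0.04, adjusted p = 0.00219), where 12.1% of all genes were called (4.81% higher, 7.28% lower). In Nalm6, 6 of 8 were called against ibrutinib (1 higher, 5 lower), where 57.2% of all genes were (29.5% higher, 27.7% lower), with EIF2S1 at -0.80, EIF4EBP1 at -0.66, EIF2AK2 at -0.57, EIF2AK1 at -0.24, EIF4EBP2 at -0.13 and PPP1R15B at 0.16. Of these, EIF2AK1 was not called after quantile normalization (-0.05, adjusted p = 0.277), and EIF4EBP2 was not called after rescaling to TPM (-0.04, adjusted p = 0.426) and turned to 0.06 after quantile normalization.

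EIF4EBP2 (chr10:70404379-70428618, forward strand), the second 4E-binding protein, was steadier. In Sem its 12 libraries lay between 35.0 and 40.4 FPKM and no comparison was called, with changes against untreated cells of 0.01 (combination), -0.02 (asparaginase) and 0.06 (ibrutinib), each with an SE of 0.05. In Nalm6 it had 36.2, 36.5 and 36.5 FPKM with the combination, 38.6, 39.4 and 37.9 with asparaginase and 39.6, 39.9 and 40.6 with ibrutinib, against 44.2, 42.5 and 43.8 in untreated cells. All 9 treated Nalm6 libraries were below the untreated ones. It fell with the combination (-0.25, SE 0.03, adjusted p = 7.89e-05) and asparaginase (-0.17, SE 0.03, adjusted p = 0.00184), and ibrutinib gave -0.12 (adjusted p = 0.0525). These small Nalm6 changes with the combination and asparaginase depended on scaling. After rescaling to TPM they were -0.08 (adjusted p = 0.0824) and -0.02 (adjusted p = 0.739). Quantile normalization gave 0.05 (adjusted p = 0.212) and 0.10, the latter called as higher (adjusted p = 0.0387).

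Relative to its target EIF4E, the EIF4EBP1 transcript was most abundant with asparaginase alone in Sem. The ratio of EIF4EBP1 to EIF4E was 19.9 ± 1.02 in Sem with the combination, 27.4 ± 0.47 with asparaginase, 14.6 ± 0.32 with ibrutinib (SD, n = 3 each) and 14.6 to 15.7 in untreated Sem. In Nalm6 it was 13.1 ± 2.61 with the combination, 18.0 ± 2.88 with asparaginase, 12.1 ± 0.95 with ibrutinib and 11.9 ± 1.68 in untreated cells, where the combination libraries overlapped those of each other group and the asparaginase libraries lay above those with ibrutinib and without drug. The denominator moved too: EIF4E averaged 5.55 ± 0.30 FPKM in Sem with the combination and 8.33 ± 0.34 in untreated Sem, and 5.37 ± 0.60 FPKM in Nalm6 with the combination and 9.93 ± 0.68 in untreated Nalm6. EIF4EBP1 over EIF4EBP2 was 5.21 ± 0.06 in Sem with asparaginase against 3.34 ± 0.23 in untreated Sem, and 2.90 ± 0.24 in Nalm6 with asparaginase against 2.69 ± 0.26 in untreated Nalm6. PPP1R15A over PPP1R15B was 0.504 ± 0.017 in Sem with the combination against 0.307 ± 0.025 in untreated Sem, and 1.40 ± 0.02 in Nalm6 with the combination against 0.208 ± 0.020 in untreated Nalm6, so the inducible form outnumbered the constitutive one only in Nalm6 with asparaginase or the combination. The ratios are descriptions without a test.

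**Figure D4:**
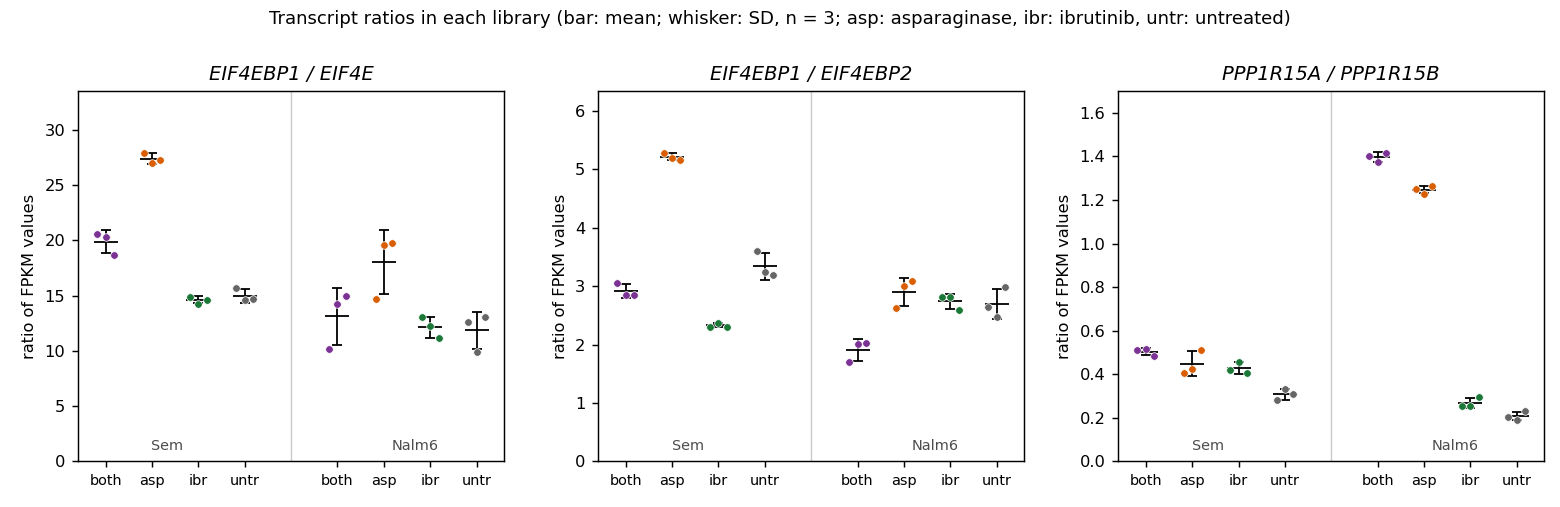
Ratio of FPKM values (vertical axes, starting at 0) of EIF4EBP1 to EIF4E, EIF4EBP1 to EIF4EBP2 and PPP1R15A to PPP1R15B in every library, with bars at group means and whiskers at the SD of 3 libraries. PPP1R15A to PPP1R15B is 1.23 to 1.42 in Nalm6 with asparaginase or the combination and at most 0.518 in every other group.

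The response of several members differed between the lines when the difference itself was tested in a fit of all 24 libraries. The effect of the combination (Sem minus Nalm6) differed for 6 of 8 members, all with the higher value in Sem, where 40.8% of all genes differed (22.2% higher, 18.6% lower): EIF2AK2 by 0.77 (SE 0.08, adjusted p = 1.31e-07), EIF4EBP1 by 0.57, EIF2S1 by 0.40, EIF2AK3 by 0.30, EIF2AK4 by 0.29 and EIF4EBP2 by 0.26. The asparaginase effect differed for 4 of 8, all higher in Sem, against 33.5% of all genes (17.7% higher, 15.7% lower): EIF2AK2 by 0.73 (SE 0.08, adjusted p = 5.57e-07), EIF4EBP1 by 0.68 (SE 0.11, adjusted p = 6.89e-05), EIF2S1 by 0.49 (SE 0.10, adjusted p = 0.000727) and EIF2AK4 by 0.19 (SE 0.07, adjusted p = 0.0371). The ibrutinib effect differed for 3 of 8 (2 higher, 1 lower), against 13.7% of all genes (7.56% higher, 6.11% lower): EIF2AK3 by 0.42 (SE 0.08, adjusted p = 0.00129), EIF2AK4 by 0.25 (SE 0.07, adjusted p = 0.0215) and EIF4EBP1 by -0.36 (SE 0.11, adjusted p = 0.0313). Leaving out 1 library ended 3 of these calls. They were EIF2AK4 with asparaginase (without asparaginase library 1 or 3 or untreated library 1 or 3 in Sem, or asparaginase library 2 or 3 or untreated library 3 in Nalm6, adjusted p 0.0572 to 0.104), EIF2AK4 with ibrutinib (without ibrutinib library 2 or untreated library 1 in Sem, or untreated library 3 in Nalm6, 0.0621 to 0.0649) and EIF4EBP1 with ibrutinib (without ibrutinib library 1 or untreated library 1 or 2 in Sem, or ibrutinib or untreated library 1 or 2 in Nalm6, 0.0538 to 0.0774). Other settings also ended calls. EIF4EBP2 with the combination was 0.12 (adjusted p = 0.0793) after quantile normalization, and EIF4EBP1 with ibrutinib was -0.26 (adjusted p = 0.151) after it and had an adjusted p of 0.0648 with no filter. EIF2AK4 was lost with asparaginase after rescaling to TPM (0.16, adjusted p = 0.139) and with no filter (adjusted p = 0.0584), and with ibrutinib after GC and length correction (0.16, adjusted p = 0.0642) and quantile normalization (0.22, adjusted p = 0.0569).

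Before treatment the lines already differed in 6 of the 8 members (1 higher and 5 lower in Sem), against 65.9% of all genes (34.0% higher, 31.8% lower). EIF2AK1 differed most, at 20.6 ± 0.14 FPKM in untreated Sem and 39.3 ± 0.38 in untreated Nalm6 (SD, n = 3 each), a log2 difference of -0.90 (SE 0.04, adjusted p = 3.36e-14). EIF2AK3 (-0.36), EIF2AK2 (-0.32), PPP1R15B (-0.32) and EIF4EBP2 (-0.21) were also lower in Sem, and EIF2AK4 was higher (0.19, SE 0.05, adjusted p = 0.00183). EIF2S1 (-0.13, adjusted p = 0.113) and EIF4EBP1 (0.09, adjusted p = 0.294) were not called. In the order of levels, all 4 Nalm6 groups stood above all 4 Sem groups for EIF2AK1 and PPP1R15B, and all 4 Sem groups above all 4 Nalm6 groups for EIF2AK4. EIF2AK3 had no such order: 6 neighbouring groups, between 8.88 and 9.82 FPKM, overlapped one with the next, and untreated Sem (7.05) and Sem with asparaginase (6.80) stood below them.

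Among the other genes of the pathway, counts are read against all tested genes, of which 26.6% were higher and 26.3% lower with the combination in Sem, and 32.4% higher and 31.3% lower in Nalm6. The list of targets of eIF2α phosphorylation held ATF4, ATF5, DDIT3, PPP1R15A, CHAC1, TRIB3, SESN2 and ASNS. Of these 8, 8 were higher with the combination and 8 with asparaginase in both lines. Upstream open reading frames were not examined in these genes, and RNA levels do not report translation. ATF4 itself rose with the combination, to 246 ± 10.2 FPKM in Sem against 199 ± 7.23 in untreated Sem (0.30, adjusted p = 0.00053) and to 213 ± 3.65 FPKM in Nalm6 against 197 ± 8.30 in untreated Nalm6 (0.12, adjusted p = 0.0286). The size depended on scaling in Nalm6, where it was 0.29 after rescaling to TPM and 0.45 after quantile normalization, against 0.40 and 0.45 in Sem. ATF5 rose in Sem, with 91.1 ± 2.83 FPKM with the combination against 11.9 ± 0.78 in untreated Sem (2.83), and in Nalm6, with 249.5 ± 19.4 FPKM with the combination against 146 ± 9.68 in untreated Nalm6 (0.77). DDIT3 (CHOP) rose by 1.43 in Sem and 2.44 in Nalm6, TRIB3 by 1.74 and 2.52, and CHAC1 by 2.51 and 1.49. With ibrutinib alone, 2 of the 8 were higher and 1 lower in Sem (20.3% and 21.3% of all genes), and 6 were higher in Nalm6 (4.99% of all genes). After rescaling to TPM 6 were higher and 1 lower in Sem and 7 higher in Nalm6, and after quantile normalization 3 were higher and 1 lower in Sem and 7 higher in Nalm6. After rescaling to TPM 8 were higher with the combination in each line, and after quantile normalization 8 in Sem and 7 in Nalm6.

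A list of 10 genes held genes of eIF2 and its exchange factor eIF2B, and EIF5, EIF2A and EIF2D, which belong to neither. Of the 10, 2 rose and 5 fell with the combination in Sem and 9 fell in Nalm6 (median log2 change -0.16 and -0.46). After rescaling to TPM 4 were higher and 5 lower in Sem and 7 lower in Nalm6 (medians -0.09 and -0.32), and after quantile normalization 3 were higher and 5 lower in Sem and 7 lower in Nalm6 (-0.06 and -0.36). EIF2B3, the γ subunit of eIF2B, averaged 6.37 ± 0.13 FPKM in Sem with the combination and 10.7 ± 0.80 in untreated Sem (-0.66), and 4.59 ± 0.42 FPKM in Nalm6 with the combination and 13.4 ± 1.18 in untreated Nalm6 (-1.37). EIF2B2 (-0.59 in Sem, -0.53 in Nalm6), EIF2B5 (-0.48 and -0.57) and EIF2B1 (-0.36 and -0.79) fell in both lines. EIF2A, which encodes a separate initiator tRNA carrier and not a subunit of eIF2, rose in Sem (0.23, adjusted p = 0.000884) and fell in Nalm6 (-0.75, adjusted p = 1.46e-06). Among 15 regulators of the kinases and eIF2α phosphatase genes, 2 rose and 8 fell in Sem and 3 rose and 8 fell in Nalm6 (medians -0.19 and -0.29). The tilt to lower depended on scaling, with 5 higher and 6 lower in Sem and 3 and 7 in Nalm6 after rescaling to TPM (medians -0.10 and -0.13), and 4 and 6 in Sem and 4 and 7 in Nalm6 after quantile normalization (-0.01 and -0.05). The chaperone genes HSP90AB1 (-0.73 in Sem, -1.65 in Nalm6) and HSP90AA1 (-0.63 and -1.48), whose products hold several of these kinases, fell, and GCN1, the activator of GCN2, fell by 0.27 in Sem and by 0.29 in Nalm6 on the log2 scale. The GCN1 call was lost after quantile normalization in Sem (-0.12, adjusted p = 0.0667) and in Nalm6 (-0.03, adjusted p = 0.779), where it was also lost after rescaling to TPM (-0.13, adjusted p = 0.265).

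Of 13 tested genes of the cap-binding complex eIF4F and its regulators, 2 rose and 8 fell with the combination in Sem and 3 rose and 6 fell in Nalm6 (medians -0.23 and -0.29). In Nalm6 4 were higher and 5 lower after either other scaling, and the median was -0.14 after rescaling to TPM and 0.03 after quantile normalization. EIF4G1, the scaffold of eIF4F, fell by 0.69 in Sem and by 1.09 in Nalm6 and EIF4E by 0.51 and by 0.78 on the log2 scale, while PDCD4, an inhibitor of the helicase eIF4A, averaged 28.0 ± 0.75 FPKM in Sem with the combination and 16.2 ± 0.80 in untreated Sem, and 38.2 ± 3.55 FPKM in Nalm6 with the combination and 8.45 ± 0.41 in untreated Nalm6. Of 18 genes of eIF3 and the 43S complex, 6 rose and 9 fell in Sem and 0 rose and 15 fell in Nalm6. After rescaling to TPM these were 6 and 7 in Sem and 3 and 13 in Nalm6, and after quantile normalization 7 and 4 in Sem and 4 and 9 in Nalm6, where the median was -0.47 as deposited, -0.30 with TPM and -0.20 with quantile normalization. EIF3B fell by 0.70 and by 1.14, EIF3I by 0.51 and by 0.86 and EIF5B by 0.51 and by 0.94. Of 6 tested elongation genes, 4 rose and 1 fell in Sem and 1 rose and 3 fell in Nalm6. EIF5A fell by 1.10 in Sem and by 1.89 in Nalm6, EEF2 rose (0.74 and 0.34), and EEF1A1 rose in Sem (0.32) and was not called in Nalm6 (0.12, adjusted p = 0.206; 0.30, adjusted p = 0.00396, after rescaling to TPM). The difference of its effect between the lines was not called (0.20, adjusted p = 0.116). EEF2K, the kinase of eEF2, fell in Nalm6 (-0.66) and was not called in Sem (0.07, adjusted p = 0.234; 0.16, adjusted p = 0.0344, after rescaling to TPM), and its effect differed between the lines (0.73, adjusted p = 3.82e-06). The median of the eIF3 list in Sem was -0.06, 0.03 after rescaling to TPM and 0.06 after quantile normalization, and that of the elongation list in Nalm6 was -0.09, 0.08 and 0.07, so no direction is given for either list in those lines.

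**Figure D5:**
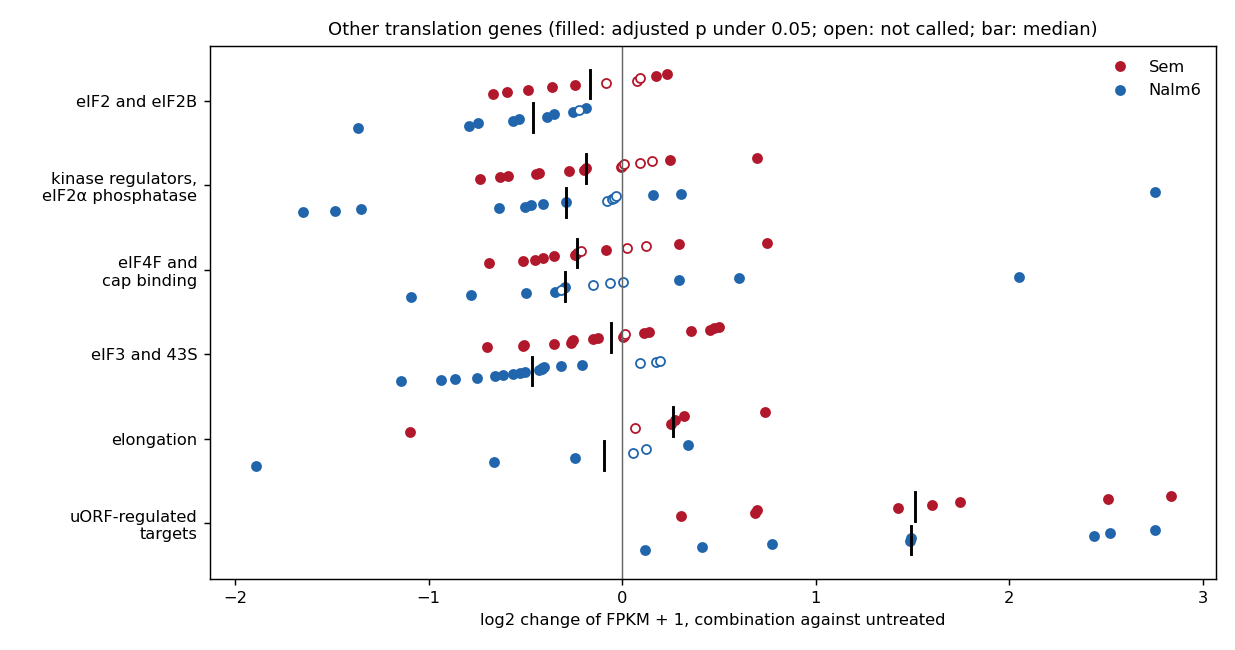
Change with the combination against untreated cells on the log2(FPKM + 1) scale (horizontal axis) of every tested gene of 6 lists; Sem is drawn above Nalm6 in each list, filled points passed the adjusted p threshold, and black bars are list medians. The list of targets of eIF2α phosphorylation, drawn as uORF-regulated targets, lies wholly above 0 in both lines (medians 1.51 in Sem and 1.49 in Nalm6). Upstream open reading frames (uORF) were not examined, so the drawn label is only a name for the list. The eIF2 and eIF2B list, which also holds EIF5, EIF2A and EIF2D, lies mostly below 0 in Nalm6.

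For the 3 members with the widest spread of group means, the genes most alike over the 24 libraries, after centring each line, were sought among 11632 genes. For EIF4EBP1 they were YARS (Pearson r = 0.97), MTHFD1L (0.95) and TIMM44 (0.94), the first a tyrosyl tRNA synthetase gene and the second a mitochondrial one-carbon enzyme gene. For EIF2S1 they were GPATCH4, LYAR and CCT5 (r = 0.98 each), and for EIF2AK2 LMAN1 (0.97), ECPAS (0.95) and KCTD20 (0.94). All points share the same libraries and treatments, so these values describe likeness and were not tested.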

How the data were processed

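Per the labels, RNA from triplicate samples was purified on RNeasy columns and made into libraries with the NEBNext Ultra RNA kit; the submitters' processing notes name fastp, STAR, featureCounts and hg38, without versions, and strand use is not given in the sources used here. The authors deposited 1 table of FPKM for 58735 genes and 24 libraries. In it, values of 1 and above (21.2% of all) had lost the decimal point. Values under 1 gave whole reads when multiplied by gene length (largest deviation 9.1e-13 reads), so each lost decimal power was restored jointly over the libraries of a gene, with reads as a constraint; 210 restored values in 122 genes stayed uncertain (posterior under 0.99), none in the genes described. A restored power rests on libraries of a gene being alike, which could hide a change of 10 times.

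Tests used limma 3.58.1 (R 4.3.3) with a mean trend on log2(FPKM + 1), for genes with at least 1 FPKM in at least 3 libraries, 2-sided, with Benjamini-Hochberg adjustment over all genes tested. Each line was fitted alone (12 libraries, 8 residual degrees of freedom), and all 24 libraries for differences between lines. A log2 change on this scale understates changes of low genes. Members, gene lists, named pathway genes and markers were chosen with earlier results of these data known. Pathway genes were named where they were among the 3 largest called changes of their list with the combination, with ATF4, DDIT3, PPP1R15A, GCN1 and EIF4E always named. The like genes are the 3 with the highest Pearson r for the 3 members of widest range. Promoters come from RefSeq (GRCh38.p14; 7 of 9 members matched), and gene coordinates from the GENCODE annotation on GRCh38. Alternatives were TPM scaling, quantile normalization, a pseudocount of 0.1, no filter, GC and length correction, both lines in 1 fit, a replicate block, omitted libraries and, chosen after seeing the data, limma voom on recovered reads.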

Additional observations from a re-analysis of the deposited data

Results flagged for a closer look

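The effect of a drug differed between Sem and Nalm6, by a limma test of the difference itself, for 13 pairs of gene and treatment, given as Sem minus Nalm6 on the log2 scale. For EIF2AK2 the difference was 0.771 with the combination and 0.729 with asparaginase. EIF4EBP1 differed by 0.569 with the combination, by 0.683 with asparaginase and by -0.36 with ibrutinib, so its sign was not the same for both drugs. EIF2S1, lower in both lines, differed by 0.403 with the combination and by 0.493 with asparaginase. For EIF2AK3 the difference was 0.302 with the combination and 0.424 with ibrutinib. EIF2AK4 differed by 0.289 with the combination, by 0.194 with asparaginase and by 0.248 with ibrutinib, and EIF4EBP2 by 0.264 with the combination. The differences of EIF2AK4 with asparaginase and ibrutinib, of EIF4EBP1 with ibrutinib and of EIF4EBP2 with the combination were each not called under at least 1 other processing.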

How the results depend on the processing

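Of 128 member changes, 61 were called. In the alternatives other than leaving out 1 library, called changes kept direction and call in 491 cases, lost the call in 34 and turned sign in 5. Limma voom on recovered reads lost 0 of 61. It kept the deposited library scaling, so it does not test that scaling. Leaving out 1 library kept 407 and lost 49. Quantile normalization turned EIF2AK1 in Nalm6 with the combination to 0.10, EIF4EBP1 in Sem with the combination to 0.072 and in Nalm6 with asparaginase to 0.31, EIF4EBP2 in Nalm6 to 0.055 (combination), 0.10 (asparaginase) and 0.063 (combination against ibrutinib), and the Sem minus Nalm6 difference of EIF2AK1 with asparaginase to -0.14. The turned values of EIF2AK1 were called in Nalm6 with the combination (adjusted p = 0.0374) and in the difference between lines (0.0422). Those of EIF4EBP1 (0.0223) and EIF4EBP2 (0.0387) were called in Nalm6 with asparaginase. The cause was not tested.

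Members called in Nalm6 with the combination against asparaginase fell to 1 with TPM scaling, no filter, pseudocount 0.1 and the replicate block. In Nalm6 with ibrutinib they were 2 with GC and length correction, 1 with no filter, 1 with quantile normalization and 2 without the libraries set apart. The interaction in Nalm6 gave 0 with no filter, and in Sem 0 with both lines in 1 fit and 0 without the libraries set apart. The ibrutinib difference between lines gave 6 without the libraries set apart. PPP1R15B in Sem with the combination against asparaginase lost its call without them (-0.18, adjusted p = 0.0533). Sem with the combination against ibrutinib gave 2 with GC and length correction, TPM scaling, both lines in 1 fit, the replicate block and voom, and Sem with ibrutinib gave 3 with GC and length correction.

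Leaving out 1 library gave these ranges of members called. In Sem they were 4 to 5 (combination), 3 to 5 (asparaginase), 5 to 6 (ibrutinib), 3 to 6 (combination against asparaginase), 1 to 2 (combination against ibrutinib) and 0 to 1 (interaction). In Nalm6 they were 6 to 6, 5 to 5, 0 to 0, 1 to 2, 6 to 6 and 0 to 1 in that order. Between lines they were 6 to 7 (combination), 3 to 5 (asparaginase), 1 to 4 (ibrutinib) and 6 to 7 (untreated).

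Deviations of same-numbered libraries correlated at -0.19 to 0.37 in Nalm6 and -0.029 to 0.10 in Sem. Those of libraries with different numbers correlated at -0.26 to 0.31 in Nalm6 and -0.11 to 0.091 in Sem. The ranges overlapped widely, with the same-numbered ones slightly higher at both ends. Whether replicate numbers pair the samples is not settled by these values. With the replicate block 60 of 61 calls held and 5 were gained. TPM scaling moved the split of all called genes, higher and lower, with the combination to 4607 and 2704 in Sem, against 3570 and 3524 as deposited, and to 5580 and 3052 in Nalm6, against 4291 and 4138. The planned edgeR and DESeq2 fits on the recovered reads were not run; limma voom on those reads was added in their place.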
